A study of Drosophila melanogaster with 3 samples.

Results

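The peaks described here are sites where Achaete (Ac) was found at promoters that point one way. The authors' optimal list on the dm6 build held 2756 peaks. A peak was taken when its summit lay within 500 bp of an annotated protein-coding transcription start and every protein-coding start within 1000 bp of the summit was on the same strand. This held for 677 of the 2756 peaks (24.6%), called one-direction peaks here. Another 349 peaks lay within 500 bp of a start but had starts on both strands nearby (both-strand peaks), 541 lay 501 to 2000 bp from the nearest start, and 1189 lay farther away (far peaks). Chromatin immunoprecipitation followed by sequencing was done on whole Drosophila melanogaster embryos aged 0 to 8 hours, of both sexes, from 1 transgenic line that stably expresses Ac with green fluorescent protein (GFP) at its C terminus. The antibody was against GFP. The 3 biological replicates form 1 group, with no other condition. Separate embryo collections are not mentioned in the labels, so the spread between replicates may in part be technical. The source label names strain ac-GFP with an insertion targeting D. melanogaster ac. The labels do not say which promoter drives the fusion, or whether the endogenous ac gene was intact.

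Ac is a proneural basic helix-loop-helix (bHLH) protein of the achaete-scute complex. It pairs with Daughterless (Da) and binds E-boxes, the most favoured of which read GCAGCTG or GCAGGTG, and it helps to single out neural precursors from ectoderm. Neighbouring cells are held back by Notch signalling through the repressors of the Enhancer of split complex, whose genes are themselves targets of proneural proteins. Fly promoters carry different core sequences: DRE and Motif 1 are typical of housekeeping genes, while the TATA box and the GAGA sequence bound by the factor encoded by Trl are more frequent at regulated genes.

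Sequence is shown first at a selection of high-ranked one-direction peaks that hold each motif, because the motif is the feature the peaks were not chosen by. Some carriers of better rank, among them insb, Alg3, px and Toll-7, are described below without sequence. They come from the RefSeq sequence of the same release 6 assembly, are written 5′ to 3′ on the strand of the gene whose start is nearest, and carry every match of the named motif in capitals, on either strand. Where the longer window touched an annotated exon, 30 bases are given. In the E-box set, GCAGCTG read from the other strand is CAGCTGC, and GCAGGTG is CACCTGC.
E(spl)m8-HLH (chr3R:26040030-26040150, plus strand): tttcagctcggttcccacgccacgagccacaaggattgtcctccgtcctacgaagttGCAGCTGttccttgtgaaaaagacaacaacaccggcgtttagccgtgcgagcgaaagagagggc
E(spl)m4-BFM (chr3R:26024676-26024796, minus strand): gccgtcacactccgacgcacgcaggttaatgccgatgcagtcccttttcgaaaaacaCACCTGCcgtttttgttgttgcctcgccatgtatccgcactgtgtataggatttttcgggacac
ac (chrX:369777-369897, plus strand): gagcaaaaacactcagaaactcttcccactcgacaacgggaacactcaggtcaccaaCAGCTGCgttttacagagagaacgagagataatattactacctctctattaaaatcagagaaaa
Dtg (chr3R:12648179-12648208, plus strand): aacaggcgaatGCAGCTGtattccttatct
al (chr2L:377876-377996, plus strand): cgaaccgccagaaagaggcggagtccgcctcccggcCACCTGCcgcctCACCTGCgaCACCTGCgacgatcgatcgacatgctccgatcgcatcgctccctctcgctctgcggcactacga
CG32066 (chr3L:10659697-10659726, minus strand): caacaggtgcaaCAGCTGCtatatcttctg
The window of E(spl)m8-HLH runs from 210 to 90 bp upstream of the start, that of E(spl)m4-BFM from 217 to 97 bp, that of ac from 254 to 134 bp, and that of al, which held 3 E-boxes, from 236 to 116 bp. None of these 4 windows touched an annotated exon. The Dtg and CG32066 windows lie downstream of the start.

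The next set holds TATCGATA, the DRE, or GGTCACAC, the core of Motif 1. Both sets lie at or just upstream of starts, and 4 of the 6 belong to genes of protein synthesis.
RpS10b (chrX:19597898-19598018, plus strand): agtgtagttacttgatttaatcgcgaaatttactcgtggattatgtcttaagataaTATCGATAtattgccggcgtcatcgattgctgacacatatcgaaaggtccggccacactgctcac
eEF1gamma (chr3R:29220120-29220149, plus strand): ggcctaggaaaTATCGATAtatcgccgtaa
Atxn7 (chr2L:2375814-2375843, plus strand): acctgtgcgacTATCGATAacatatcgcac
RpL30 (chr2L:19009261-19009290, minus strand): atccccccgtcGGTCACACcaacacaaacg
RpL27A (chr2L:4458330-4458359, minus strand): cgccgccgggcGGTCACACtgctacaaccg
Adsl (chr3R:17021117-17021146, minus strand): tatcgcaaggcGGTCACACtgccccgccac
The last set holds GAGAGAG, and was picked after the motif values were seen.
gish (chr3R:16280825-16280854, plus strand): ttaattttgcgCTCTCTCcttctcttccgc
CG1907 (chr3R:29618877-29618997, plus strand): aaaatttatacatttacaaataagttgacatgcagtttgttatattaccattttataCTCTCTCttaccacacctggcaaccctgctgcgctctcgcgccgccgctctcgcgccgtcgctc
CG11151 (chrX:13739599-13739719, plus strand): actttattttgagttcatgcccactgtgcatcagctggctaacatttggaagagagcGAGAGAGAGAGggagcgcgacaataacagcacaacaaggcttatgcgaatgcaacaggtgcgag
The RpS10b window ends 13 bp upstream of its start, the CG1907 window 68 bp and the CG11151 window 25 bp upstream.

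Replicate 1 had the fewest regions at a q value of at most 0.05 and the most one-direction peaks missing from its full list. The comparisons between classes and the ranks of named peaks are therefore given by replicate. Values with no replicate beside them come from the optimal list. Each replicate list held 30000 regions, of which 3453, 9954 and 7898 in replicates 1, 2 and 3 had a q value of at most 0.05. The lists hold no read counts, so the depth is unknown. Each replicate was represented by its 2756 strongest regions, its top regions, ranked by the authors' signal value, whose scale is not stated. One-direction peaks made up 22.5%, 26.2% and 24.3% of the top regions of replicates 1, 2 and 3 (mean 24.3% ± 1.83 SD, n = 3). Of the 677 peaks, 64 had no summit within 150 bp anywhere in the list of replicate 1, against 4 in replicate 2 and 24 in replicate 3.

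The one-direction peaks were spread through the optimal list, with a median rank of 1450 where 1 is the strongest. Their median width was 390 bp and ranged from 98 to 695 bp. Of the 677, 318 (47.0%, exact 95% interval 43.2 to 50.8) had a counterpart among the top regions of every replicate, while 221 had it for 2 replicates, 129 for 1 and 9 for 0. Presence means a top summit within 150 bp, and it was 68.2%, 86.6% and 70.5% in replicates 1, 2 and 3. The largest partial pattern was presence in replicates 2 and 3 but not 1, with 107 peaks, followed by replicates 1 and 2 with 85. Both-strand peaks were present in all 3 replicates in 49.6% of cases and far peaks in 46.3%, and the interval of the one-direction share contains both. By replicate the classes differed more. Both-strand presence was 80.2%, 77.1% and 69.3% in replicates 1, 2 and 3, above the one-direction share in replicate 1 and below it in replicates 2 and 3. Far presence was 70.0%, 85.0% and 71.1%. Intervals of shares cover counting error only.

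Arms 2L, 2R, 3L, 3R and X had 20.9% to 27.9% of their optimal peaks in the one-direction class. On chromosome 4, 9 of 17 peaks were one-direction (52.9%, exact 95% interval 27.8 to 77.0), and 0 were both-strand. RpS3A, which encodes a protein of the small ribosomal subunit, is among the 9, with its summit exactly at the start.

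The summits sat mostly upstream of the start. Of the 677, 497 lay upstream (73.4%, exact 95% interval 69.9 to 76.7), with a median position of -124 bp relative to the nearest start. Replicates 1, 2 and 3 gave upstream shares of 81.6%, 69.3% and 72.1% (mean 74.3% ± 6.49 SD, n = 3). All 3 replicates were above 69%, and replicate 1 was the highest. Summits more than 200 bp downstream of the start numbered 42 (6.20%), against 222 more than 200 bp upstream.

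**Figure D1:**
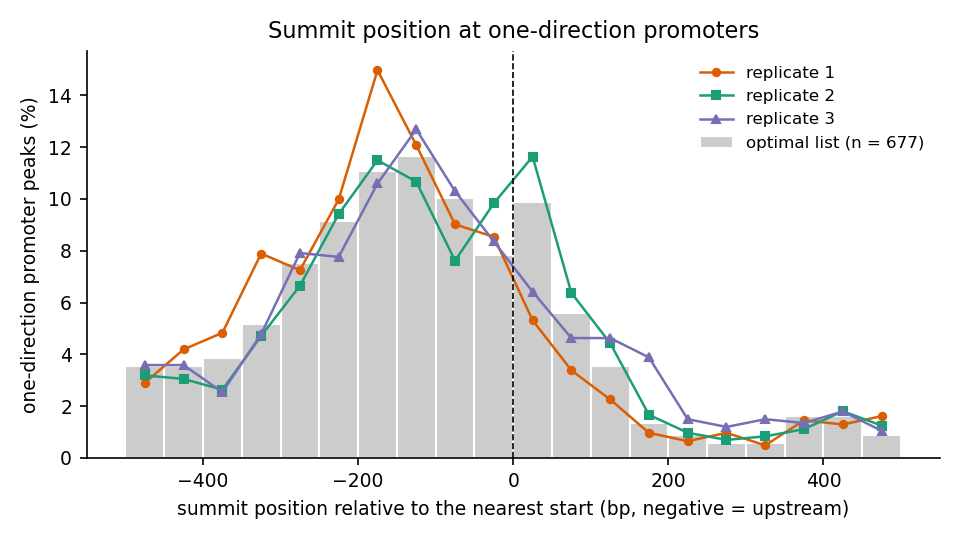
Share of one-direction peaks (y axis, %) by summit position relative to the nearest protein-coding start (x axis, bp, bins of 50 bp), as grey bars for the 677 optimal peaks and as lines for the top regions of each replicate. Replicates 1 and 3 have their tallest bin upstream of the start, while in replicate 2 the bin from 0 to 50 bp downstream (84 summits) is as tall as the tallest upstream one (83 summits).

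Stronger peaks lay upstream more often than weaker ones, a split examined after the data were seen. With the 677 peaks divided by rank into 4 groups of nearly equal size, the upstream share was 87.6% in the strongest (149 of 170), then 76.3%, 69.8% and 59.8% in the weakest (101 of 169). The median position moved from -172 to -128, -101 and -47 bp. In the replicates' own lists the strongest group stood at 87.8%, 86.7% and 82.7% in replicates 1, 2 and 3, and the weakest at 74.8%, 56.1% and 59.3%. The strongest group was higher in 3 of 3 replicates, by 13.0, 30.6 and 23.5 percentage points (mean 22.4 ± 8.88 SD). The exact sign-flip permutation test gave a two-sided p of 0.25, the smallest that 3 replicates allow. Within the 1000 strongest regions of each list the mean difference was 10.99 points. Base composition moved with rank: the median GC content within 100 bp of the summit was 37.3% in the strongest group and 45.3% in the weakest, and its part in the result was not tested.

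**Figure D2:**
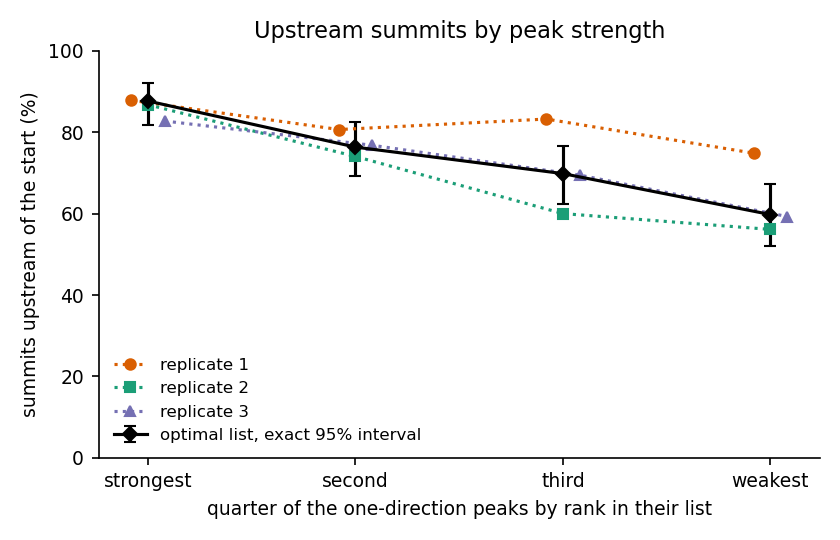
Share of one-direction summits upstream of the start (y axis, %) in 4 rank groups from strongest to weakest (x axis), for the optimal list with exact 95% intervals (black) and for each replicate's own top regions (coloured). The optimal list falls from 87.6% to 59.8%, and the fall is smallest in replicate 1, from 87.8% to 74.8%.

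The strongest one-direction peak, and the strongest of all 2756, was at px (plexus, a gene of wing vein patterning), with rank 1 in each of the 3 replicates. Its summit (chr2R:22514305) lay 206 bp upstream of the nearest start, at chr2R:22514099. That start is inside the gene (chr2R:22494297-22562065, minus strand), and so is the summit. CG14100 followed at rank 2, with ranks 3, 5 and 3 in replicates 1, 2 and 3. ph-p, which encodes the Polycomb group protein Polyhomeotic, held a pair of one-direction peaks. The first, 485 bp upstream of a start, ranked 3 in the optimal list and 2, 10 and 9 in the replicates. The second, 437 bp downstream of a start, ranked 34 and stood at 30, 45 and 29. Both were thus near the top in every replicate. The 15 strongest also included CG1888 (rank 7), E(spl)m8-HLH (11), CBP, for a calcium-binding protein (32), E(spl)m4-BFM (33), and Fkbp14, for a peptidyl-prolyl isomerase (39). They ended with Toll-7, for a Toll family receptor (44), aay, for phosphoserine phosphatase (49), larp, for an RNA-binding protein (50), Alg3, for a mannosyltransferase (54), Tina-1 (56) and RluA-1 (61). All 15 were among the top regions of every replicate, and 14 of the 15 summits were upstream of the nearest start, the exception being the second ph-p peak. Besides px, the nearest start lay inside the gene at the first ph-p peak, CG1888, Fkbp14 and larp.

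The Ac/Sc-Da E-box, GCAGCTG or GCAGGTG on either strand, lay within 100 bp of the summit at 111 of the 677 peaks (16.4%, exact 95% interval 13.7 to 19.4). The replicates' own one-direction regions gave 14.3%, 16.8% and 17.6%. Windows of the same 201 bp centred 1000 bp to either side of the summits held it in 7.68%. At 8852 one-direction starts with no peak nearby, read at the members' median offset, the share was 5.85%, and centred on the start it was 6.24%. Where the peaks had an E-box, the nearest one was a median of 33 bp from the summit, and in 72.1% it was within 50 bp. There were 19 peaks with at least 2 E-boxes that share no base and 2 with at least 3. Every Ac/Sc-Da E-box contains the shorter word CAGCTG or CAGGTG, which were found at 19.9% and 12.6% of the peaks, so these counts overlap. Among E-boxes of other bHLH proteins, CACGTG lay at 25 peaks (3.69%), against 2.58% of flanking windows and 2.20% of starts with no peak. CATATG lay at 43 (6.35%), close to the 6.43% of flanking windows and the 5.82% of starts with no peak.

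Both-strand peaks held the Ac/Sc-Da E-box less often in each replicate, with a p that 3 replicates cannot bring under 0.25. Their share was 6.74%, 12.3% and 13.7% in replicates 1, 2 and 3, below the one-direction share of the same replicate in 3 of 3 (mean difference 5.33 percentage points ± 1.98 SD, exact permutation p = 0.25, adjusted p = 0.344 over 22 motif comparisons by Benjamini-Hochberg). The shorter word CAGCTG showed no such difference: 19.9% of one-direction and 19.8% of both-strand peaks held it, and the replicates differed by 2.69, -0.50 and 0.49 points. The other shorter word, CAGGTG, did, at 12.6% of one-direction and 7.74% of both-strand peaks. Its one-direction share was higher by 1.63, 4.18 and 2.76 points in the replicates (exact permutation p = 0.25, adjusted p = 0.344). When both kinds of peak were sorted by starts within 2000 bp in place of 1000 bp, the mean difference in the Ac/Sc-Da E-box was 2.69 points. With the motif search within 50 bp it was 4.47 points, and within 200 bp 2.80 points. Far peaks held the E-box in 13.4%, 21.3% and 20.1%, and the one-direction share differed from these by 0.96, -4.49 and -2.52 points (mean -2.02 ± 2.76 SD, exact permutation p = 0.5), so the direction was not shared by the replicates. Within the one-direction peaks, the E-box share showed no steady course with strength, at 15.9%, 20.7%, 14.2% and 14.8% from the strongest to the weakest group.

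E-box peaks ranked worse in replicate 1 than in the others. E(spl)m8-HLH stood at ranks 48, 4 and 6 in replicates 1, 2 and 3. E(spl)m4-BFM, for a Bearded family protein, stood at 251, 18 and 31. The peak 178 bp upstream of the ac start (optimal rank 65, chrX:369853) stood at 397, 28 and 119. In all 3, replicate 1 gave the weakest rank by a wide margin. insb, for a nuclear repressor protein, ranked 409, 52 and 120, and Ac3, for an adenylyl cyclase, 754, 199 and 421. Replicate 1 was the weakest for 9 of the 10 strongest E-box peaks, the exception being CG12316. Among peaks with a counterpart in all 3 lists, replicate 1 gave the worst rank at 64 of 99 with an E-box (64.6%) and at 156 of 489 without (31.9%). Over all 588 such peaks it was 37.4%, against 21.3% for replicate 2 and 41.3% for replicate 3. The trait was not particular to the E-box: replicate 1 gave the worst rank at 42 of 63 peaks with GAGAGAG (66.7%) and at 178 of 525 without (33.9%). Replicate 1 also had the fewest regions at a q value of at most 0.05, 3453, and the part of that in these ranks was not tested. Without replicate 1, that is among peaks found among the top regions of replicates 2 and 3, the E-box share was 17.4%.

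**Figure D3:**
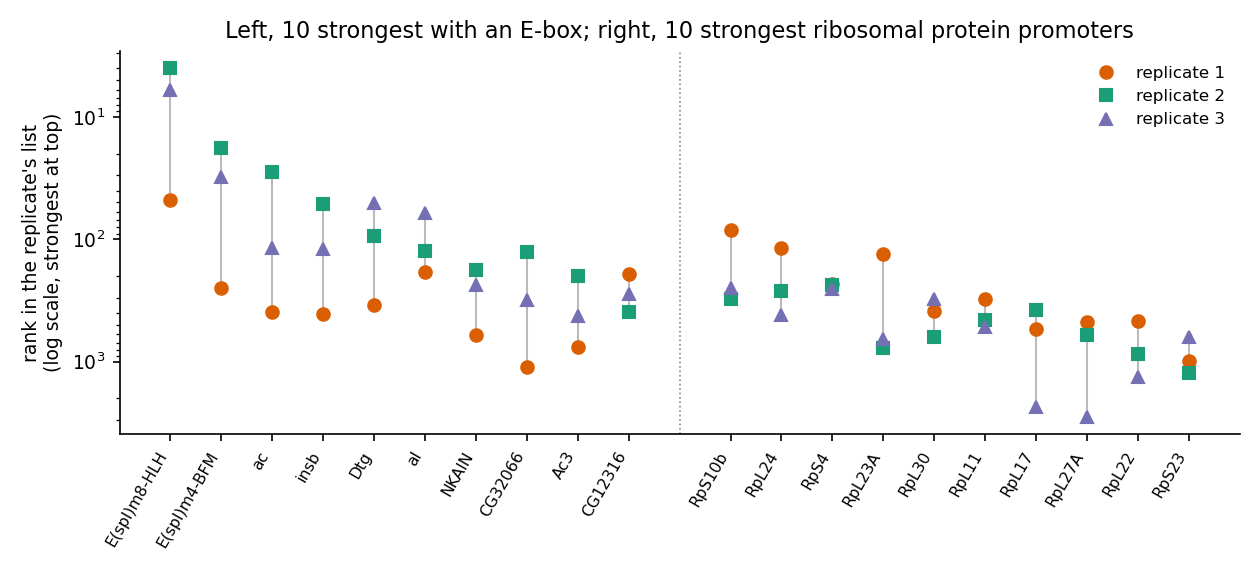
Rank of the peak in each replicate's full list (y axis, log scale, strongest at the top) for the 10 strongest one-direction peaks with an Ac/Sc-Da E-box (left) and the 10 strongest at cytoplasmic ribosomal protein genes (right). Replicate 1 (circles) is the lowest point for 9 of the 10 E-box peaks, while at RpS10b it ranks 84 against 310 and 252 in replicates 2 and 3.

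GAGAGAG was the motif with the largest mean difference in share between one-direction and both-strand peaks among the 11 words, which was noticed after all had been counted. The TATA box word came close in the other direction, at a mean of -9.68 points. Its difference was the larger in size in replicates 1 and 3 (-9.29 and -11.4 points, against 7.27 and 11.0 for GAGAGAG) and the smaller in replicate 2 (-8.35 against 11.6). GAGAGAG lay within 100 bp of the summit at 82 one-direction peaks (12.1%, exact 95% interval 9.75 to 14.8), against 4.95% in the flanking windows. The share was 5.84% at starts with no peak, and 3.90% when those were centred on the start. The replicates' one-direction shares were 8.05%, 13.7% and 13.9%. Both-strand shares were 0.777%, 2.15% and 2.92%, and far shares 4.29%, 5.06% and 5.05%. The one-direction share was higher than the both-strand share by a mean of 9.93 points ± 2.32 SD and higher than the far share by 7.08 ± 2.88 SD. Both contrasts had the same sign in 3 of 3 replicates, with an exact permutation p of 0.25 and an adjusted p of 0.344. The mean difference from both-strand peaks was 3.94 points with a search within 50 bp and 20.8 with one within 200 bp. Unlike the E-box, the word lay around the summit more than at it. Its median distance from the summit was 61.5 bp, and in 40.2% of its carriers it was within 50 bp. Counted in bins of 50 bp, it was at 17 in each bin next to the summit, and at 37 and 42 in the bins 100 to 150 bp away. GAGA peaks were not those with the best rank: their share was 7.06% in the strongest rank group, then 13.0% and 11.8%, and 16.6% in the weakest. Their presence also depended on the library, with 51.2% found in the top regions of replicate 1, 82.9% in replicate 2 and 78.0% in replicate 3. The strongest carriers were px, Toll-7, gish, for a casein kinase I, insb and CG1907, which were picked after their values were seen. Both the E-box and GAGAGAG were present at 18 peaks.

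DRE was less frequent at one-direction than at both-strand peaks and more frequent than at far peaks, in each replicate. TATCGATA was found at 14 (2.07%, exact 95% interval 1.14 to 3.45), and the replicates gave 2.09%, 1.94% and 1.94%. Both-strand peaks held it in 9.07%, 5.83% and 5.83%, so the one-direction share was lower in 3 of 3 replicates (mean difference -4.92 points ± 1.78 SD, exact permutation p = 0.25, adjusted p = 0.344). With the search within 50 bp the mean difference was -2.41 points and within 200 bp -10.1 points. Far peaks held DRE in 0.168%, and the one-direction share was above the far share by 1.84, 1.68 and 1.77 points in the replicates (mean 1.76 ± 0.0798 SD, exact permutation p = 0.25, adjusted p = 0.344). The flanking windows held it in 0.665%. At starts with no peak the share was higher, 3.67% at the members' offset and 4.72% centred on the start. The 14 summits lay close to the start, at a median of -23 bp, and 0 were more than 200 bp away. Alg3 was the strongest, with ranks 23, 96 and 129 in the replicates. RpS10b, for a ribosomal protein, stood at 84, 310 and 252, and eEF1gamma, for an elongation factor, at 140, 315 and 345. These 3 were best in replicate 1. Atxn7, for a chromatin regulator, at 884, 1009 and 1144, and Dab, for an adaptor protein, at 1169, 1022 and 916, completed the 5 strongest and also held E-boxes. Of 13 DRE peaks ranked in all 3 lists, replicate 1 gave the best rank at 7 and the worst at 2.

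GGTCACAC was found at 12 peaks (1.77%), against 4.87% of both-strand and 0.168% of far peaks. The share was lower than the both-strand share (mean difference -2.16 points ± 1.12 SD) and above the far share by 1.95 ± 0.199 SD, each with the same sign in 3 of 3 replicates (exact permutation p = 0.25, adjusted p = 0.344). Its share at starts with no peak depended on where the window was put, 1.23% at the members' offset and 4.02% centred on the start, so the members' share has no fixed order against it. Its strongest carriers were RpL30, RpL27A, Adsl, for a purine synthesis enzyme, RpS23 and RpL37A. RpL30 ranked 386, 633 and 311 in the replicates, while RpL27A ranked 477, 608 and 2841 and so fell just outside the top regions of replicate 3.

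TATAAA, the TATA box word, was found at 186 peaks (27.5%). That was below both-strand peaks in every replicate (one-direction 29.3%, 26.3% and 24.2%, both-strand 38.6%, 34.7% and 35.6%) and below starts with no peak (34.1%, or 29.9% centred on the start). Far peaks held it in 27.4%, 25.6% and 24.2%, close to the one-direction shares. The one-direction share was 31.8% in the strongest rank group and 18.3% in the weakest. The 265 matches at one-direction peaks had a median position of -188.5 bp from the start, with quartiles of -292.5 and -114.5 bp. These shares thus count the word near summits and do not place it as a core promoter element. The median GC content of the windows was 40.3% at one-direction peaks, 35.8% at both-strand peaks and 37.8% at starts with no peak, and the part of base composition in these shares was not tested. The word bound by Zelda, the early activator of the zygotic genome, CAGGTAG, was found at 23 peaks (3.40%), against 1.25% of starts with no peak. In the replicates it was at 2.25%, 3.32% and 3.13% of one-direction and 0.518%, 0.920% and 0.292% of both-strand peaks. Far peaks held it in 2.78%, 2.74% and 2.78%, much like one-direction peaks. The one-direction share differed from these by -0.52, 0.58 and 0.35 points (exact permutation p = 0.75). GTGGGAA, a word of the Notch effector Su(H), was at 18 peaks (2.66%), close to the 2.68% at starts with no peak. Altogether 466 peaks (68.8%) held none of the Ac/Sc-Da E-box, GAGA, DRE, Motif 1, Zelda and Su(H) words in these windows. Of the 22 comparisons over the 11 motifs, 16 had the same sign in all 3 replicates, and the smallest adjusted p was 0.344.

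**Figure D4:**
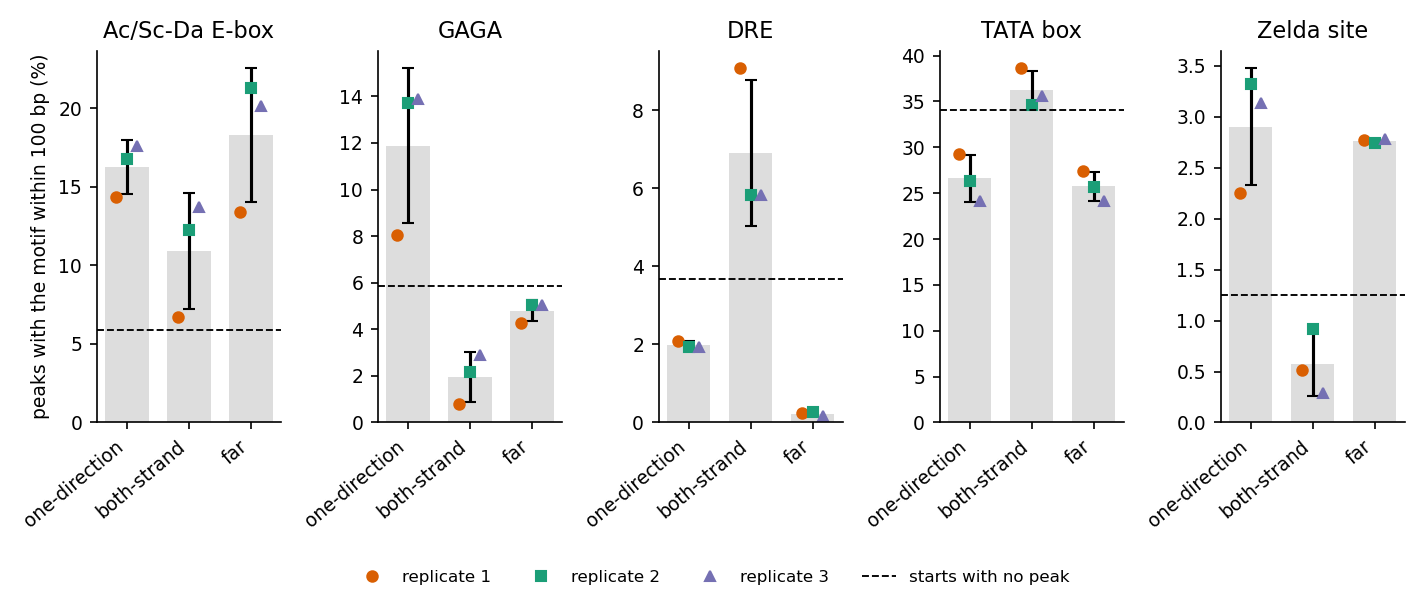
Share of peaks with each motif within 100 bp of the summit (y axis, %, scale of its own in each panel) for one-direction, both-strand and far peaks. Bars are the mean of 3 replicates with SD, points are the replicates, and the dashed line is the share at one-direction starts with no peak; the one-direction points lie above the both-strand points for GAGA and below them for DRE and the TATA box.

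A one-direction peak lay within 500 bp of a start of 648 of 13968 protein-coding genes (4.64%). Of the 9521 genes that have a start free of opposite-strand starts within 1000 bp, 641 did (6.73%). Both-strand peaks reached 620 genes (4.44%). The genes at one-direction peaks were long. Their median length was 8129 bp, against 2592 bp at both-strand peaks and 2167 bp for the 8880 eligible genes with no one-direction peak. In the replicates the median was 7166, 7594 and 8451 bp at one-direction peaks (mean 7737 ± 654 SD) and 2494, 2550 and 2671 bp at both-strand peaks (mean 2572 ± 90.5 SD), with no overlap. More than 1 start was annotated for 58.3% of the one-direction genes, 42.1% of the both-strand genes and 27.2% of the eligible genes with no such peak. Genes with more starts offer more places for a peak, and the part of that in the count was not tested.

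The nearest start was not the first start of its gene at 269 of the 677 peaks (39.7%), and at 196 (29.0%) it lay more than 1000 bp inside the gene. A non-coding start on the opposite strand lay within 1000 bp of 55 summits (8.12%), so these promoters are one-direction for protein-coding starts alone. The summit was inside a protein-coding gene of the opposite strand at 37. A region of the list can hold more than 1 summit, each counted as a peak: the 677 peaks lay in 674 regions, and the pairs in 1 region were at ac, RapGAP1 and for. There were 43 genes with at least 2 one-direction peaks, and 41 with at least 2 regions. Ptpmeg2, for a tyrosine phosphatase, had 4, at optimal ranks 210, 581, 1029 and 2163. Drat, RapGAP1, for a GTPase activator of Rap1, Rtnl1, for a reticulon, and Svil had 3 each, of which those of RapGAP1 lay in 2 regions.

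The neural lists are described first, against the 4.64% of all genes and the 6.73% of those with an eligible start, one free of opposite-strand starts within 1000 bp. Of the 13 genes of the Enhancer of split complex, 10 had a one-direction peak (76.9%, with 46.2% as the lower bound of the exact 95% interval) and 1 a both-strand peak. All 10 summits were upstream, between 124 and 469 bp from the start, with a median of -343.5 bp where that of all one-direction genes was -119 bp. An E-box lay at 5 of the 10 and GAGAGAG at 0, where 16.4% and 12.1% of all one-direction peaks held them. After m8 and m4, E(spl)m7-HLH ranked 174, 214 and 155 in replicates 1, 2 and 3. The peak of E(spl)mgamma-HLH, with 2 E-boxes, ranked 3506, 323 and 188, and that of E(spl)m6-BFM 3787, 449 and 930, both outside the top regions of replicate 1. The corepressor gene gro, in the same complex, ranked 316, 426 and 1036. By replicate, 8, 11 and 9 of the 13 genes had a one-direction region.

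Of 11 proneural genes and partners, 4 had a one-direction peak: ac, its neighbour sc, emc, for an HLH antagonist of the proneural proteins, and hry, for a repressor of ac. The strongest after ac was emc at 2422, 541 and 2559. The sc peak, 91 bp upstream of the start and with GAGAGAG, had no counterpart in replicate 1 and ranked 2278 and 811 in replicates 2 and 3. Of 18 genes of the sensory organ precursor, the founder cell of a sense organ, 8 had one (44.4%, exact 95% interval 21.5 to 69.2), and 8, 12 and 11 did by replicate. These were insb, nvy, chn, edl, Traf4, pnt, phyl and sca. chn, for a neuronal repressor, ranked alike everywhere, at 114, 122 and 106, whereas nvy, for a transcriptional corepressor, ranked 615, 51 and 102. GAGAGAG lay at 4 of the 8 and an E-box at 1, where 12.1% and 16.4% of all one-direction peaks held them. phyl, for an adaptor in protein degradation, and sca, for a secreted protein of lateral inhibition, both had GAGAGAG and no counterpart in replicate 1.

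Of 14 Notch pathway genes, 3 had a one-direction peak and 3 a both-strand one. numb, for an inhibitor of Notch in asymmetric division, ranked 99, 141 and 59, and spdo, for a Notch regulator in the same divisions, 1037, 557 and 163. mib1, for a ubiquitin ligase of Notch ligands, stood at 17301, 2334 and 2542. Among 15 neuronal differentiation genes 1 had a peak, elav, for a neuronal RNA-binding protein, at 82, 83 and 75, a close agreement. Of 8 Hox genes, lab had one, at 2052, 2322 and 2785.

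Among genes of growth, ribosomal protein promoters had their summits close to the start. Of 86 cytoplasmic ribosomal protein genes, 19 had a one-direction peak (22.1%, exact 95% interval 13.9 to 32.3) and 40 (46.5%) a both-strand peak. An eligible start was present in 38 of the 86, and the 19 were all among these (exact 95% interval of the share 33.4 to 66.6%). The other 48 have no eligible start. By replicate, 21, 18 and 16 had a one-direction region. The 19 summits had a median position of +5 bp, and 15 were within 50 bp of the start, where 123 of all 648 genes (19.0%) were. An E-box was at 0 of the 19 and a DRE at 2, where 16.4% and 2.07% of all one-direction peaks held them. RpS10b was followed by RpL24 at 117, 264 and 415 and RpS4 at 231, 236 and 253. Replicate 1 gave the best rank at 12 of the 19, compared with 219 of all 588 peaks ranked in all 3. Of 51 translation factor genes, 29 of them eligible, 8 had one, led by eEF1gamma, eIF6, for a ribosome assembly factor, at 280, 419 and 546, and eEF2, for an elongation factor, at 571, 1841 and 2367. An E-box was at 0 of the 8, where 16.4% of all one-direction peaks held one, and 8 genes are too few to tell these apart. Of 73 mitochondrial ribosomal protein genes 15 had an eligible start, and 0 of the 15 had a one-direction peak (exact upper bound 21.8%), while 8 of the 73 had a both-strand peak. Of 48 proteasome genes 23 were eligible and 0 had one (upper bound 14.8%).

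The other lists had few members. Of 22 cell cycle genes, 14 of them eligible, 5 had a one-direction peak and 0 of these was among the top regions of every replicate. CycE, for a cyclin of S phase entry, ranked 855 in replicate 2 and had no counterpart in the others, while stg, for the phosphatase that triggers mitosis, ranked 1364 and 838 in replicates 2 and 3 and was missing from replicate 1. Of 21 Polycomb group genes, 11 of them eligible, 2 had one, ph-p and jing, for a zinc finger protein, at 11456, 1204 and 2997. Of 15 insulator and promoter factor genes, 7 of them eligible, 2 had one and 5 had a both-strand peak. Trl, whose product binds GAGA sequence, ranked 1364, 1077 and 756, and mod(mdg4), for an insulator protein, 29316, 1510 and 11887. Of 171 chemosensory receptor and odorant-binding protein genes, 1 had a peak, Obp99b, at 256, 485 and 2332, and of 67 eligible Cpr cuticle protein genes 0 did (upper bound 5.36%).

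**Figure D5:**
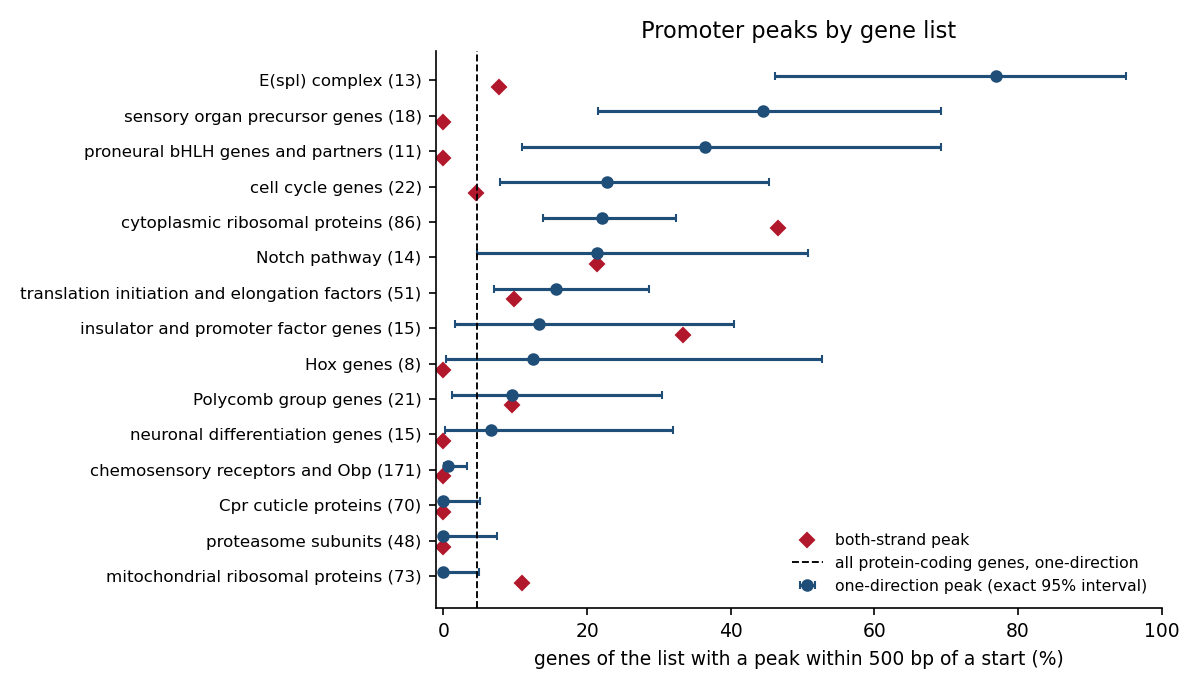
Share of the genes of each list (y axis, number of genes in brackets) with a one-direction peak within 500 bp of a start (circles, exact 95% interval) and with a both-strand peak (diamonds), in % on the x axis. The dashed line is the 4.64% of all protein-coding genes; Enhancer of split genes stand at 76.9%, and cytoplasmic ribosomal protein genes have more both-strand than one-direction peaks.

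At the limits of the definition, the last peak inside 500 bp was at tsh, 492 bp from the start with rank 2327, and the first outside was at prage, 505 bp away with rank 730. For the strand condition, cnn was inside with an opposite start 1003 bp from the summit and rank 1689, and msn was outside with one at 999 bp and rank 2209. There were 30 one-direction peaks at 451 to 500 bp and 23 optimal peaks at 501 to 550 bp.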

How the data were processed

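Chromatin immunoprecipitation sequencing of GFP-tagged Ac was deposited as peak lists. Each deposited region carries a signal value made by the authors, on a scale not stated, used here for ranks within 1 list. It also carries the authors' −log10 of a q value, used to count regions and, with ties broken by signal, as another ranking, and the authors' summit offset as another deposited number. Per the deposited notes, the authors made the optimal list by irreproducible discovery rate, from lists for each replicate and for all reads together. Neither the peak caller and its version nor the threshold is given in the sources used here. Sonicated fragments were 200 to 800 bp, per the labels. Control alignments and the dm3 lists were not analysed here.

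Starts came from the Ensembl 115 annotation of BDGP 6.54, with 13968 protein-coding genes, and sequence from the RefSeq release of the same assembly. All dm6 regions lay within its arm lengths. Summits and coordinates count from 1. A peak was matched to a replicate by the best-ranked summit within 150 bp. Motifs were exact words on either strand within 100 bp of the summit. Shares carry exact (Clopper-Pearson) 95% intervals. Differences were computed within each replicate's 2756 top regions and tested by an exact two-sided sign-flip permutation over 3 replicates, with Benjamini-Hochberg adjustment over 22 motif comparisons. Genes named were ac, those at the 15 strongest peaks, the 10 strongest with an E-box and the 5 strongest each with TATCGATA and GGTCACAC, up to 3 for each of 15 gene lists, and those at the limits; further names were added after values were seen. The members and lists were chosen with earlier results of these data known, and 1 list symbol was renamed and 1 left out to match the annotation used. Alternatives varied the distances, gene types, list length, repeated genes, replicates, ranking and motif window. The code was tested on simulated data with Python 3.11.15, numpy 2.4.6, scipy 1.17.1 and matplotlib 3.10.9.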

Additional observations from a re-analysis of the deposited data

How the results depend on the processing

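The 11 results were recomputed under 109 alternatives in all. Of these, 88 kept their value or direction and 21 values moved by more than the spread between replicates, or by over 1.5 times for the count. No difference between classes reversed its mean. With the 1000 strongest regions, there were 251 one-direction peaks, of which 85.3% were upstream, 19.1% held an E-box and 8.76% GAGAGAG. With 1 replicate left out and peaks kept that recur in both others, the count was 347 to 425, the upstream share 76.9% to 81.8%, the E-box share 16.1% to 17.4%, the DRE share 1.65% to 2.02% and the GAGAGAG share 8.44% to 12.7%. Presence in both remaining replicates was 51.3% to 62.8%. Motif shares depend on the window by construction: within 50 bp the E-box was at 10.9%, GAGAGAG at 4.43% and DRE at 1.18%, and within 200 bp at 23.9%, 25.7% and 4.28%. The DRE share, resting on 14 peaks, was 2.91% for summits within 250 bp, 1.56% with starts of any gene type and 2.23% with 1 peak for each gene; the cause was not tested. The mean DRE difference from both-strand peaks was -2.41 points within 50 bp and -10.1 within 200 bp. The mean E-box difference from far peaks, -2.02 points, was -3.51 without replicate 1 and -0.78 without replicate 2. The upstream difference between the strongest and weakest rank groups was 10.99 points with the 1000 strongest regions. The alternatives for GAGAGAG and the rank groups, and the windows centred on unbound starts, were chosen after seeing the data. Differences between classes were taken within each replicate. With 1 group, there is no other group to pair replicate numbers with. The optimal list could not be rebuilt from fewer replicates, and the unknown depth limits what absence from a list can show.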
